A study of Mus musculus with 2 samples.

Results

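CD8 T cells in which no molecule of Pdcd1, Havcr2 or Lag3 was counted were taken from immune cells of subcutaneous melanomas. They numbered 310 of 10491 kept cells, or 2.95% (95% interval 2.64 to 3.30%, exact Clopper-Pearson), and 310 of the 737 CD8 T cells, or 42.1%. A member had at least 2 molecules of Cd8a and Cd8b1 together, none of Cd4 or Foxp3, and at least 2 of Cd3e, Cd3d, Cd3g and Trac together. It also had fewer than 10 C1q molecules (C1qa, C1qb and C1qc), fewer than 5 of Fscn1 and Ccl22, 200 or more genes detected, and no more than 25% of its molecules from mitochondrial genes. The members were therefore selected on measured values of the cells themselves, and values of genes in the rule are given below only to describe what the selection took. These cells are called receptor-free below and the 427 other CD8 cells receptor-bearing. Both names refer to molecules counted for these 3 genes and not to protein.

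The immune cells had been sorted as CD45-positive from tumours of B16F10 cells, a pigmented mouse melanoma line, grown under the skin of female C57BL/6 mice. The injected melanoma cells carried a knockout of Tyr, a knockout of Oca2 or neither (WT), with 3 mice for each of the 3 tumour genotypes, and the mouse genotype is labelled C57/BL6 throughout. All cells went through 1 capture, with 1 sample tag (8, 9 or 10) for each tumour genotype. The labels and tag calls used here do not tie a tag to a genotype, and cells of the mice of 1 genotype were not separable. Each tag is therefore treated as a sample whose genotype is not named, genotypes were not set against each other, and no test was run. Members of 1 tag share their mice, and all share 1 capture. The age of the mice is not given in the labels.

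Pdcd1 encodes PD-1, Havcr2 encodes TIM-3 and Lag3 encodes LAG-3, inhibitory receptors that T cells put on their surface after activation and keep under chronic stimulation, as in tumours. Resting and central memory T cells recirculate between blood and lymphoid tissue by means of receptors that include CCR7 and the sphingosine phosphate receptor S1pr1. They hold this state with transcription factors such as Klf2, Lef1 and TCF-1, the product of Tcf7, and with the interleukin 7 receptor. Effector CD8 cells carry granzymes, perforin and chemokines such as Ccl5. Memory CD8 cells in mice can carry resting genes and effector genes together, along with Ly6C, the product of Ly6c2.

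By tag, receptor-free cells numbered 78, 96 and 136 in tags 8, 9 and 10, against 75, 175 and 177 receptor-bearing cells. Their share of CD8 cells was 51.0% (42.8 to 59.1%) in the first, 35.4% (29.7 to 41.4%) in the next and 43.5% (37.9 to 49.1%) in the last. The interval of tag 8 and that of tag 9 did not overlap, and that of tag 10 overlapped both. All intervals here cover counting error only. The summed depth was 297150, 468215 and 585182 molecules in receptor-free cells, against 669162, 1897667 and 1734192 in receptor-bearing cells. Levels are given in CPM, the molecules of a gene scaled to the total of its class and tag, in the order of tags 8, 9 and 10.

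Receptor-free cells were shallower, with a median of 3685 molecules per cell against 7587 in receptor-bearing cells. The share of CD8 cells without receptor molecules was lowest in the deepest cells of each tag. It was 72.7% of 44 cells with 1000 to 2000 molecules, 64.4% of 236 cells with 2000 to 4000, 44.7% of 228 cells with 4000 to 8000 and 10.6% of 227 deeper cells. By tag it was 88.9%, 54.5% and 66.7% at 1000 to 2000 molecules and 60.7%, 66.1% and 65.3% at 2000 to 4000, so the tags did not share a direction between these bins, the first of which held 11 to 18 cells a tag. If receptor-bearing cells were cut to 3685 molecules, 11.9% of them would be expected to show none of the 3 receptors (346 cells deep enough), and 27.7% at 2000 molecules (413 cells). At 1000 molecules per cell, the expected share without receptors was 71.6% of CD8 cells, against 97.3% of neutrophils and 99.0% of B cells, which should lack these receptors. At the edges of the rule, 71 members had exactly 2 CD8 molecules, 72 receptor-bearing cells had exactly 1 receptor molecule, and 99 further cells failed only for having 1 CD8 molecule.

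**Figure D1:**
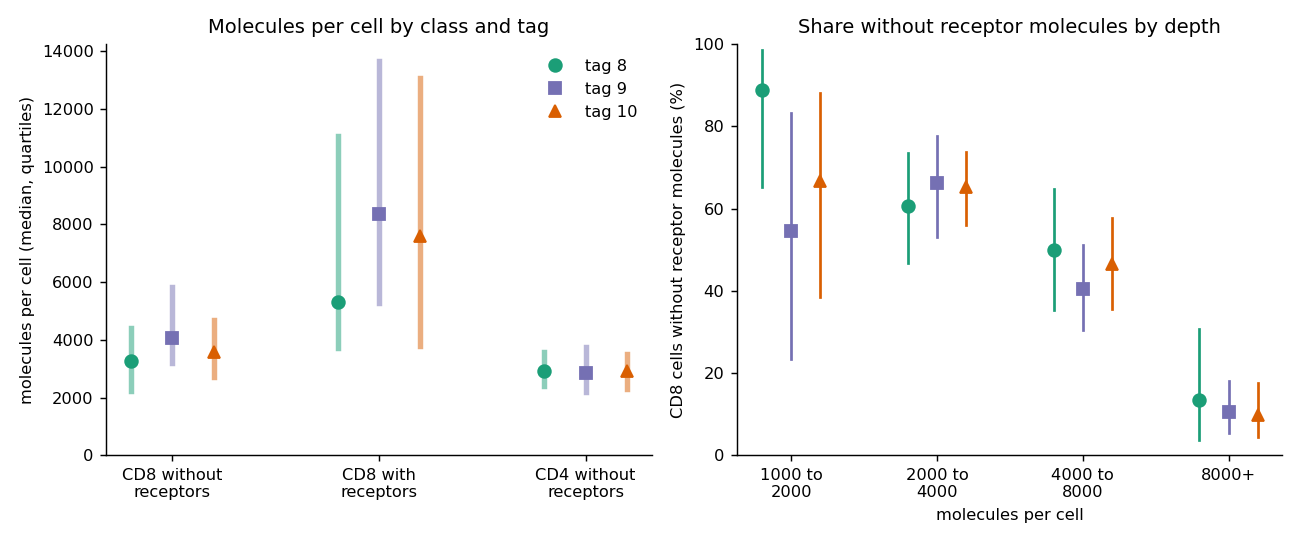
Left, median molecules per cell (symbols) with quartiles (bars) in CD8 cells without receptor molecules, CD8 cells with them and CD4 cells without them, by tag. Right, percent of CD8 cells without receptor molecules by molecules per cell, with exact 95% intervals. Receptor-free cells were shallower than receptor-bearing cells in each tag, and their share was lowest in the deepest cells, at 9.68 to 13.3% by tag.

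CD8 and T cell receptor complex molecules were required by the rule, so their counts describe the selection. Cd8a (GRCm38 chromosome 6, 71373427 to 71379173) was counted in 278 of 310 cells and Cd8b1 (chromosome 6, 71322788 to 71337494) in 266, with a median of 4 CD8 molecules and 9 T cell receptor complex molecules per cell, against 12 and 23 in receptor-bearing cells. Of the fixed markers that the rule did not use, Tcf7 was counted in 57.4% of members, S1pr1 in 41.3% and Lef1 in 39.4%. In neutrophils, with a median of 2186 molecules, these 3 genes were counted in 0.982%, 1.47% and 0.327% of cells. The word checkpoint in a name for these cells would cover only the 3 receptors of the rule. Tigit or Ctla4, which encode 2 other inhibitory receptors, was counted in 147 members (47.4%, 41.7 to 53.1%), and 184 (59.4%) had a molecule of Tigit, Ctla4, Cd244a, Cd160 or Tnfrsf9. Trdc, the delta chain constant gene of gamma-delta T cells, was counted in 14 members, with 1, 3 and 10 cells by tag, and all 30 Trdc molecules of tag 8 lay in 1 cell.

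Receptor-free cells were set against receptor-bearing CD8 cells within each tag. The call asked for a ratio of CPM of 2-fold or more, with 1 direction shared by all 3 tags, among 8031 genes with at least 50 molecules. By this rule 201 genes were higher (2.5%) and 263 lower (3.27%). Averaging CPM over cells in place of summing gave 82 higher and 204 lower. Leaving out tag 8, 9 or 10, so that only the remaining tags had to concur, gave 287, 257 and 246 higher and 404, 456 and 438 lower genes. Ratios are given as the median of the 3 tags with the lowest and highest tag. The median of all genes was -0.11 on the log2 scale. Since the classes were cut by 3 receptor genes, and depth moves with that cut, these are descriptions of the classes, with the comparison at matched depth given after them.

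Genes of resting and recirculating T cells had the highest median log2 ratio of the 17 lists, at 2.37, with 11 of 18 called higher and none lower. Klf2, a transcription factor that maintains quiescence and drives S1pr1, had 357, 329 and 212 CPM in receptor-free cells, against 32.9, 26.9 and 25.9 CPM in receptor-bearing cells, with a log2 ratio of 3.44 (3.03 to 3.61). The groups were far apart in each tag. Il7r, the interleukin 7 receptor, had 384, 361 and 217 CPM in receptor-free cells, against 73.2, 16.9 and 39.2 CPM in receptor-bearing cells, and a ratio of 2.47 (2.39 to 4.42). S1pr1 (chromosome 3, 115710433 to 115715072), the receptor for exit into blood and lymph, had 209, 229 and 186 CPM in receptor-free cells, against 65.8, 22.1 and 27.7 CPM in receptor-bearing cells.

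Tcf7 (chromosome 11, 52252371 to 52283014), which encodes TCF-1, had 411, 367 and 301 CPM in receptor-free cells, against 121, 35.8 and 62.3 CPM in receptor-bearing cells, with a log2 ratio of 2.27 (1.76 to 3.36). Lef1 (chromosome 3, 131110471 to 131224356), its close relative, had 256, 194 and 121 CPM in receptor-free cells, against 25.4, 25.3 and 28.3 CPM in receptor-bearing cells, with a ratio of 2.94 (2.10 to 3.33). For both, the lowest receptor-free tag exceeded the highest receptor-bearing tag. Others called were Klf3, Satb1, Foxp1, Id3 and Igfbp4, with ratios of 2.90, 2.96, 1.75, 3.17 and 3.77. The Id3 call held in 12 of 20 alternatives and was lost at 2000 to 8000 and at 3000 to 5000 molecules. That of Igfbp4 held in 17 of 21 and was lost in thinned cells. Not called were Ccr7, at 242, 261 and 137 CPM in receptor-free cells against 208, 185 and 145 CPM, Bcl2, Bach2, Slamf6, Dapl1, Foxo1 and Actn1. The share of cells with a Tcf7 molecule was 57.4% in receptor-free cells and 21.8% in receptor-bearing cells, and with every cell cut to 1000 molecules 26.1% and 7.46% (310 and 425 cells, 2 receptor-bearing cells being shallower).

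**Figure D2:**
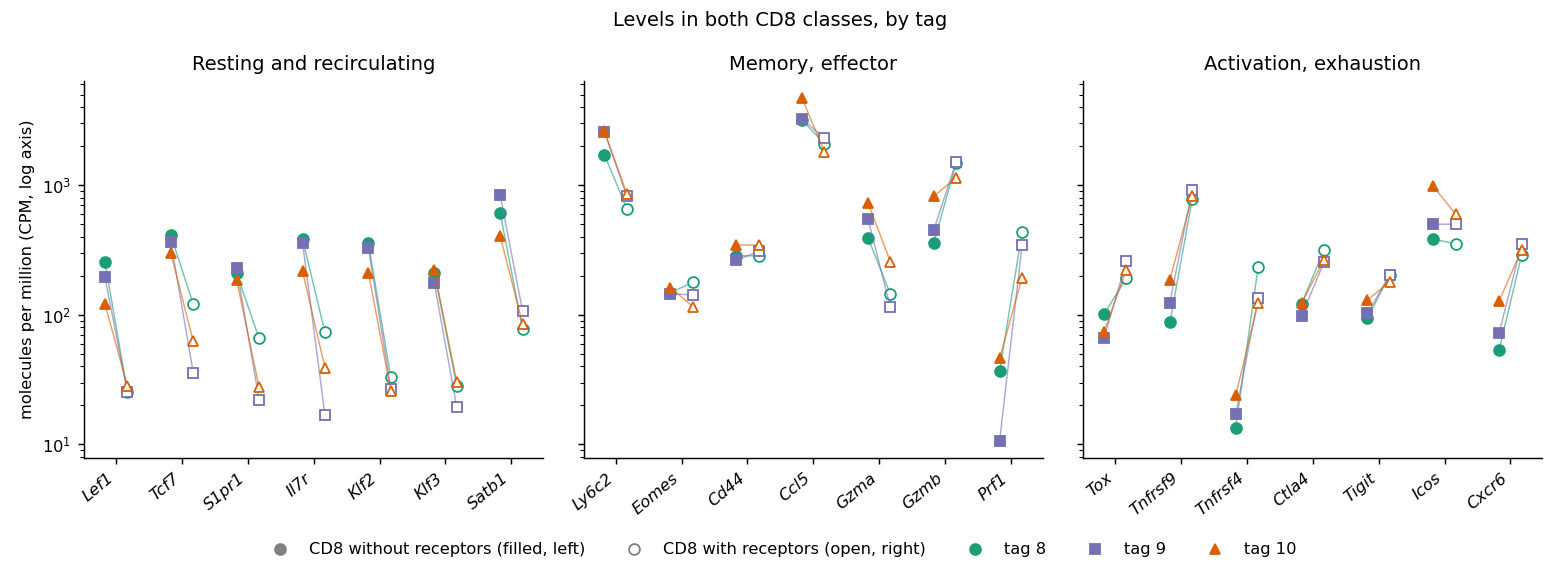
Summed levels (CPM, log axis) of 21 list genes in CD8 cells without receptor molecules (filled, left) and CD8 cells with them (open, right), with a line joining the classes of 1 tag. Every resting gene shown falls to the right in every tag, Cd44 and Eomes are nearly level, and Prf1, Tox, Tnfrsf9, Tnfrsf4, Ctla4 and Cxcr6 climb to the right in every tag.

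Among 14 memory genes, 1 was called higher and none lower, with a median of 0.01. That gene was Ly6c2 (chromosome 15, 75108158 to 75111970), which encodes the surface antigen Ly6C, with 1719.7, 2565 and 2615 CPM in receptor-free cells, against 658, 827 and 853 CPM in receptor-bearing cells and a log2 ratio of 1.62 (1.39 to 1.63). The call was lost in 6 of 21 alternatives, including thinned cells and mean CPM, and the median was 0.75 at 2000 to 8000 and 0.37 at 3000 to 5000 molecules. Cd44, an adhesion receptor raised on antigen-experienced cells, had 286, 263 and 345 CPM in receptor-free cells, against 285, 308 and 346 CPM in receptor-bearing cells. Eomes, a transcription factor of memory and effector CD8 cells, had 148, 145 and 162 CPM in receptor-free cells, against 178, 143 and 116 CPM in receptor-bearing cells. Neither gene was called, and the classes overlapped for both. Cxcr3, a chemokine receptor of effector and memory cells, had 87.5, 91.8 and 116 CPM in receptor-free cells, against 47.8, 23.2 and 39.8 CPM in receptor-bearing cells, and missed the call in 1 tag. Il2rb, the interleukin 2 and 15 receptor beta chain, had 922, 1038 and 954 CPM in receptor-free cells, against 1009, 1369.6 and 1410.5 CPM in receptor-bearing cells.

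Of 18 cytotoxic genes, 2 were called higher and 4 lower, with a median of -1.14. Gzma, which encodes granzyme A, had 394, 553 and 733 CPM in receptor-free cells, against 145, 115 and 258 CPM in receptor-bearing cells, and was called higher with a ratio of 1.51 (1.44 to 2.27). That call was lost in cells with 2000 to 8000 molecules, where the median was -0.040, and few cells made up the level, since 1 cell held 122 of the 259 Gzma molecules of tag 9. Gzmm was the other gene called higher, a call that held in 10 of 21 alternatives. Perforin, the pore-forming protein of killer cells and the product of Prf1, had 37.0, 10.7 and 46.1 CPM in receptor-free cells, against 432, 346 and 194 CPM in receptor-bearing cells, with a ratio of -3.54 (-5.02 to -2.07). Granzyme B, the product of Gzmb, had 360.1, 453 and 822 CPM in receptor-free cells, against 1476, 1516 and 1142 CPM in receptor-bearing cells. It was lower in each tag but under 2-fold in tag 10, so that it was not called. The granzymes Gzmc, Gzme and Gzmf were called lower. Gzme was at 0 in the receptor-free cells of every tag, against 106, 35.3 and 60.0 CPM, and with a floor of 3 molecules per tag the log2 ratio was at most -2.46 in each tag. Nkg7, a granule gene, had 794, 869 and 936 CPM in receptor-free cells, against 1412, 1438 and 1465 CPM in receptor-bearing cells and was not called.

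Of 8 effector chemokine and cytokine genes compared, Ccl3 was called, lower, with 63.9, 51.3 and 114 CPM in receptor-free cells, against 1028, 368 and 311 CPM in receptor-bearing cells. Ccl5, a chemokine that draws T cells and myeloid cells, was abundant in both classes, with 3170.1, 3246 and 4696 CPM in receptor-free cells, against 2095, 2314 and 1800.3 CPM in receptor-bearing cells, and was not called. It was counted in 255 members (82.3%), against 9.49% of neutrophils and 3.98% of B cells. Xcl1 and Ifng had 97.6, 167 and 188 CPM and 141, 83.3 and 169 CPM in receptor-free cells, against 409, 315 and 537 CPM and 632, 239.8 and 303 CPM in receptor-bearing cells. Both were lower in each tag but under 2-fold in 1 tag.

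Of 14 inhibitory and activation receptor genes that the rule did not read, 5 were called lower in receptor-free cells and none higher, with a median of -1.39. Tnfrsf9, which encodes the costimulator 4-1BB, had 87.5, 124 and 186 CPM in receptor-free cells, against 780.1, 924 and 825 CPM in receptor-bearing cells, with a ratio of -2.90 (-3.16 to -2.15). Tnfrsf4, which encodes OX40, had 13.5, 17.1 and 23.9 CPM in receptor-free cells, against 235, 135 and 124 CPM in receptor-bearing cells. Ctla4, an inhibitory receptor that competes with CD28, had 121, 98.2 and 123 CPM in receptor-free cells, against 318, 255 and 265 CPM in receptor-bearing cells, with a ratio of -1.37 (-1.39 to -1.11). The classes did not overlap for these 3 genes. Il2ra and Cd200 were the others, at -1.64 and -2.54. Tigit had 94.2, 103 and 129.9 CPM in receptor-free cells, against 205, 204 and 180.5 CPM in receptor-bearing cells and was not called. Icos, a costimulator of activated T cells, had 384, 499.8 and 979 CPM in receptor-free cells, against 353, 501 and 597 CPM in receptor-bearing cells, and Cd28 had 374, 286 and 415 CPM in receptor-free cells, against 260.0, 265 and 269 CPM in receptor-bearing cells.

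Among 13 transcription factors of effector and exhausted cells, Irf8 and Prdm1 were called lower and none higher. Tox, which sustains the exhausted state, had 101, 66.2 and 73.5 CPM in receptor-free cells, against 193, 258 and 224 CPM in receptor-bearing cells. It was lower in each tag and 1 tag fell just short of 2-fold. Irf8 had 30.3, 68.3 and 119.6 CPM in receptor-free cells, against 424, 453 and 361 CPM in receptor-bearing cells. It is also a gene of dendritic cells and macrophages, whose summed list levels were 397 to 1135 CPM (7 macrophage genes) and 525 to 1871 CPM (8 dendritic cell genes) in receptor-free cells, against 363 to 707 CPM and 396 to 1193 CPM in receptor-bearing cells by tag. Their part in the Irf8 level was not tested. Prdm1, which encodes BLIMP-1, had 13.5, 21.4 and 22.2 CPM in receptor-free cells, against 46.3, 43.2 and 46.7 CPM in receptor-bearing cells. Its call held in 10 of 21 alternatives and was lost with TMM scaling and with mean CPM. Cxcr6, a chemokine receptor of tissue and tumour T cells, was called lower. It had 53.8, 72.6 and 128 CPM in receptor-free cells, against 288, 351 and 317 CPM in receptor-bearing cells. The integrin gene Itgae was called higher, at 30.3, 19.2 and 18.8 CPM against 2.99, 5.80 and 4.61 CPM. The Itgae call held in 9 of 21 alternatives and was lost in thinned cells and at 2000 to 8000 molecules.

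Several lists held calls in the higher direction. Of 8 GIMAP genes, which encode GTPases of lymphocyte survival, Gimap3, Gimap6 and Gimap9 were called higher and none lower, with a list median of 1.20. Gimap6 had 495, 449 and 432 CPM in receptor-free cells, against 154, 122 and 131 CPM in receptor-bearing cells. Of 14 type I interferon response genes, Ifit1, Ifit3 and Rtp4 were called higher, with a list median of 1.06, and Ifit3 had 101, 47.0 and 129.9 CPM in receptor-free cells, against 26.9, 11.6 and 17.3 CPM in receptor-bearing cells. Of 14 interferon gamma response genes, Irf1, Gbp2, Gbp4 and Iigp1 were called higher, with a median of 0.63. Irf1, a transcription factor induced by interferons, had 363, 286 and 263 CPM in receptor-free cells, against 115, 101 and 94.0 CPM in receptor-bearing cells. Il6ra, Il6st and Socs3, which encode both chains of the interleukin 6 receptor and a feedback inhibitor, were called higher among 14 cytokine receptor genes, and Il6ra had 77.4, 66.2 and 23.9 CPM in receptor-free cells, against 4.48, 7.38 and 9.23 CPM in receptor-bearing cells. Cd69, an early activation antigen that opposes S1pr1, was called higher among 9 antigen response genes, with 316, 327 and 389.6 CPM in receptor-free cells, against 126, 60.6 and 98.6 CPM in receptor-bearing cells. Btg1 and Zfp36 were called higher among 12 genes of tissue dissociation stress, which had a median of 0.91. The Cd69, Socs3, Btg1 and Zfp36 calls were lost in thinned cells, with mean CPM, and at 2000 to 8000 and 3000 to 5000 molecules. Without cells that carried 3 or more molecules of macrophage, B cell, neutrophil or melanoma genes, none of the 7 called interferon genes passed in every tag. Their lowest median was then 0.38, for Ifit1. The part of macrophage transcripts in these ratios was not tested. No call fell among 8 NK-type receptors or 15 T cell receptor signalling genes, whose medians were 0.04 and 0.14.

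Of 14 proliferation genes, Birc5, Ccna2, Cdk1 and Tyms were called lower and none higher, with a median of -1.20. The call of Ccna2 held in 11 of 20 alternatives and was lost with TMM scaling, and all 4 calls were lost at 2000 to 8000 molecules. Mki67, a marker of cycling cells, had 195, 160.2 and 181 CPM in receptor-free cells, against 330.3, 271 and 293 CPM in receptor-bearing cells. At least 2 molecules of Mki67, Top2a, Birc5, Ccnb2, Cdk1 and Ube2c were found in 60 receptor-free cells (19.4%, 15.1 to 24.2%) and in 223 receptor-bearing cells (52.2%). The median depth of those 60 cells was 4889 molecules, against 3685 over all members. Both shares were read at the cells' own depth, and the median of receptor-bearing cells was 7587. Within 2000 to 8000 molecules, Mki67 over all tags had 98.9 CPM in receptor-free cells. It had 123, 186 and 114 CPM there in cells with 1, 2 to 4 and 5 or more receptor molecules. By tag, Mki67 in that range had 126, 41.7 and 128 CPM in receptor-free cells. It had 384, 193 and 65.0 CPM with 2 to 4 and 233, 126 and 19.9 CPM with 5 or more receptor molecules. The last of these rest on 15, 18 and 2 Mki67 molecules. Tag 10 was thus opposite in direction to tags 8 and 9. Pgk1 and Tpi1 were called lower among 12 glycolysis genes, which had a median of -0.91. Pgk1, phosphoglycerate kinase, had 286, 303 and 267 CPM in receptor-free cells, against 739.7, 982 and 736 CPM in receptor-bearing cells. Across the 17 lists, 31 of 211 compared genes were called higher and 19 lower. The 94 ribosomal protein genes compared had a median of 0.14.

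Beyond the lists, the 10 genes with the firmest calls in each direction were read, ranked by the tag nearest to no difference. The higher ones were Klf2, Klf3, Fam241a, Il7r, Satb1, Ssh2, Lef1, Sidt1, Klhl6 and Asap1. Satb1, a chromatin organiser of T cells, had 612, 839 and 407 CPM in receptor-free cells, against 77.7, 108 and 85.3 CPM in receptor-bearing cells. Ssh2, a phosphatase that activates the actin-severing protein cofilin, had 565, 628 and 595 CPM in receptor-free cells, against 132, 75.9 and 108 CPM in receptor-bearing cells. The lower ones were Gzmf, Slc17a6, Asns, Galnt3, Tnfsf4, Penk, Serpine2, Epas1, Gzme and Plod2. Penk, which encodes the opioid precursor proenkephalin, was at 0 in the receptor-free cells of every tag, against 495, 48.0 and 132 CPM in receptor-bearing cells. Epas1, which encodes the hypoxia-inducible factor HIF-2 alpha, had 6.73, 17.1 and 10.3 CPM in receptor-free cells, against 76.2, 137 and 58.8 CPM in receptor-bearing cells. Serpine2, a protease inhibitor, had 13.5, 23.5 and 1.71 CPM in receptor-free cells, against 83.7, 177 and 69.8 CPM in receptor-bearing cells.

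The comparison was repeated at matched depth. With both classes limited to 3000 to 5000 molecules, 138 receptor-free cells had a median of 3779.5 molecules and 83 receptor-bearing cells one of 3787. Of 3010 genes compared, 25 were called higher (0.831%) and 27 lower (0.897%). Receptor-free cells numbered 29, 46 and 63 by tag, against 24, 20 and 39. List genes called higher included Klf2, Klf3, Satb1 and Igfbp4 of the resting list. Klf2 had 422, 424 and 284 CPM in receptor-free cells, against 32.7, 24.0 and 75.2 CPM in receptor-bearing cells, and Satb1 had 909, 792 and 462 CPM in receptor-free cells, against 153, 204 and 164 CPM in receptor-bearing cells. Those called lower were Tox, Ctla4, Tnfrsf9 and Cxcr6. Tnfrsf9 had 56.2, 78.1 and 93.2 CPM in receptor-free cells, against 338, 839 and 349 CPM in receptor-bearing cells, and Tox had 84.3, 44.6 and 93.2 CPM in receptor-free cells, against 272, 347 and 205 CPM in receptor-bearing cells. Tcf7 had 553, 324 and 385 CPM in receptor-free cells, against 283, 95.9 and 171 CPM in receptor-bearing cells, and Lef1 had 356, 223 and 142 CPM in receptor-free cells, against 54.5, 108 and 88.9 CPM in receptor-bearing cells. Both were higher in each tag, but below 2-fold in 1 tag. S1pr1 and Il7r were not called here or at 2000 to 8000 molecules, with medians of 1.63 and 2.10 here and 1.61 and 1.20 there.

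Other calls did not carry over to this depth. Gzma had 65.6, 552 and 669 CPM in receptor-free cells, against 131, 503 and 109 CPM in receptor-bearing cells, which was lower in tag 8 and higher in tag 10. No interferon, GIMAP, proliferation or cytotoxic list gene was called, where fewer genes were compared and the cells were fewer. In the wider range of 2000 to 8000 molecules, with medians of 3731.5 in 254 receptor-free cells and 4580 in 210 receptor-bearing cells, 37 of 5313 genes were called higher (0.696%) and 75 lower (1.41%). There the resting list held 5 of 17 higher and none lower, and the median of the list was 1.20. No member of the interferon, GIMAP or proliferation lists was called there, with list medians of 0.28, 0.03, 0.54 and -0.65 for type I interferon, interferon gamma, GIMAP and proliferation genes. With every cell thinned to 1000 molecules, 25 of 2663 genes were called higher (0.939%) and 49 lower (1.84%). List genes called higher in that setting included Lef1, S1pr1, Il7r, Klf2, Klf3, Satb1, Foxp1, Gimap9 and Irf1. With the receptor rule itself read at 1000 molecules, 10 of the 31 list genes called higher over all cells were called again. Of the 19 list genes called lower over all cells, 0 were called again with the rule read at 1000 molecules. The calls of Ctla4, Tnfrsf9 and Cxcr6 were among those lost. That setting counted 534 of 735 CD8 cells as receptor-free, against 310 of 737 at the cells' own depth. Its receptor-free class thus took in cells with receptor molecules counted at their own depth. In thinned cells with the classes kept, 8 of the 19 were called lower again, including Ctla4, Tnfrsf9 and Cxcr6. In both settings fewer genes were compared (2663).

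**Figure D3:**
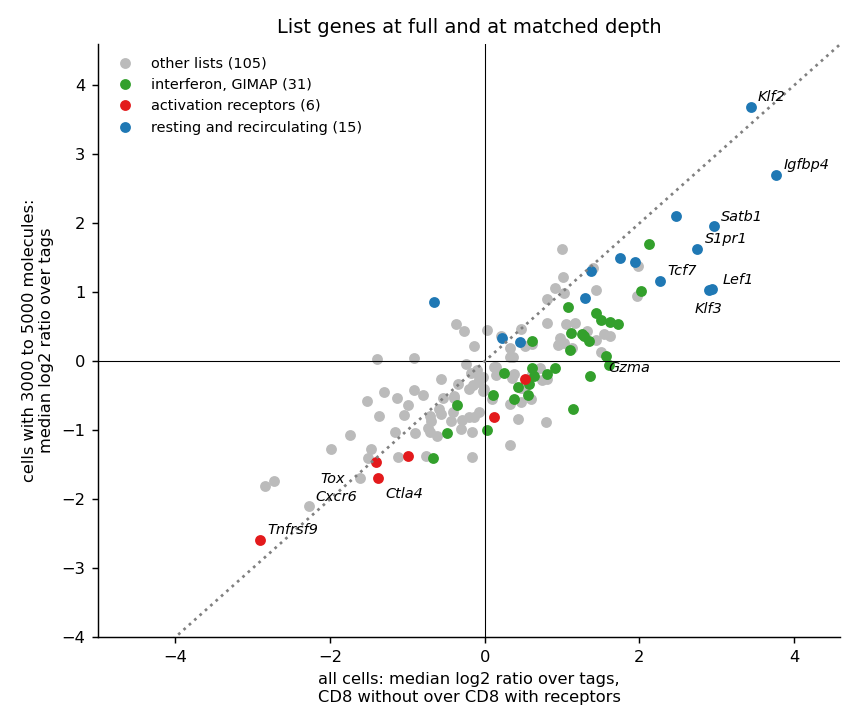
Median log2 ratio over the 3 tags, CD8 cells without over CD8 cells with receptor molecules, in all cells (horizontal) and in cells with 3000 to 5000 molecules (vertical), for 157 list genes. Named genes include those called at matched depth. The resting genes Klf2 and Igfbp4 lie far above 0 on both axes and Tnfrsf9 far below. Over all receptor-free cells, Igfbp4 had only 7 molecules in tag 10, in 3 cells. Gzma lies at 1.51 on the horizontal axis and 0.13 on the vertical one.

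Among CD8 cells, those with a single receptor molecule were described apart, since their median depth was 3730.5 molecules, close to that of receptor-free cells. There were 72 such cells, 11, 23 and 38 by tag, so each level rests on few cells. The cells with 2 to 4 receptor molecules numbered 140 and those with 5 or more 215, with medians of 5357 and 12113 molecules. Klf2 had 357, 329 and 212 CPM in receptor-free cells, 45.9, 69.0 and 50.1 CPM with 1 molecule, 82.4, 34.7 and 49.1 CPM with 2 to 4 and 13.2, 20.7 and 14.0 CPM with 5 or more. The step lay between none and 1 molecule in each tag. At 2000 to 8000 molecules Klf2 had 395, 399 and 250 CPM with none and 47.8, 135 and 54.4 CPM with 1 molecule. Tcf7 had 411, 367 and 301 CPM with none and 504, 119 and 206 CPM with 1 molecule, followed by 206, 79.7 and 70.1 CPM and 52.7, 17.9 and 39.3 CPM. In tag 8 the level with 1 molecule was above that with none. At 2000 to 8000 molecules Tcf7 had 456, 366 and 366 CPM with none and 526, 176 and 249 CPM with 1 molecule. Tnfrsf9 had 87.5, 124 and 186 CPM, 115, 351 and 282 CPM, 418, 814 and 572 CPM and 979, 1009 and 994 CPM, and climbed at each step in each tag. Gzma had 394, 553 and 733 CPM with none, 1628, 157 and 1245 CPM with 1, 82.4, 353 and 509 CPM with 2 to 4 and 26.3, 62.8 and 26.2 CPM with 5 or more molecules. It was lowest at 5 or more in each tag and highest at 1 molecule in tags 8 and 10. At 2000 to 8000 molecules Gzma had 208, 399 and 621 CPM with none and 1698, 325 and 1477 CPM with 1 molecule. There tag 8 was lowest at 2 to 4 receptor molecules, at 10.4 CPM against 171 CPM at 5 or more.

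**Figure D4:**
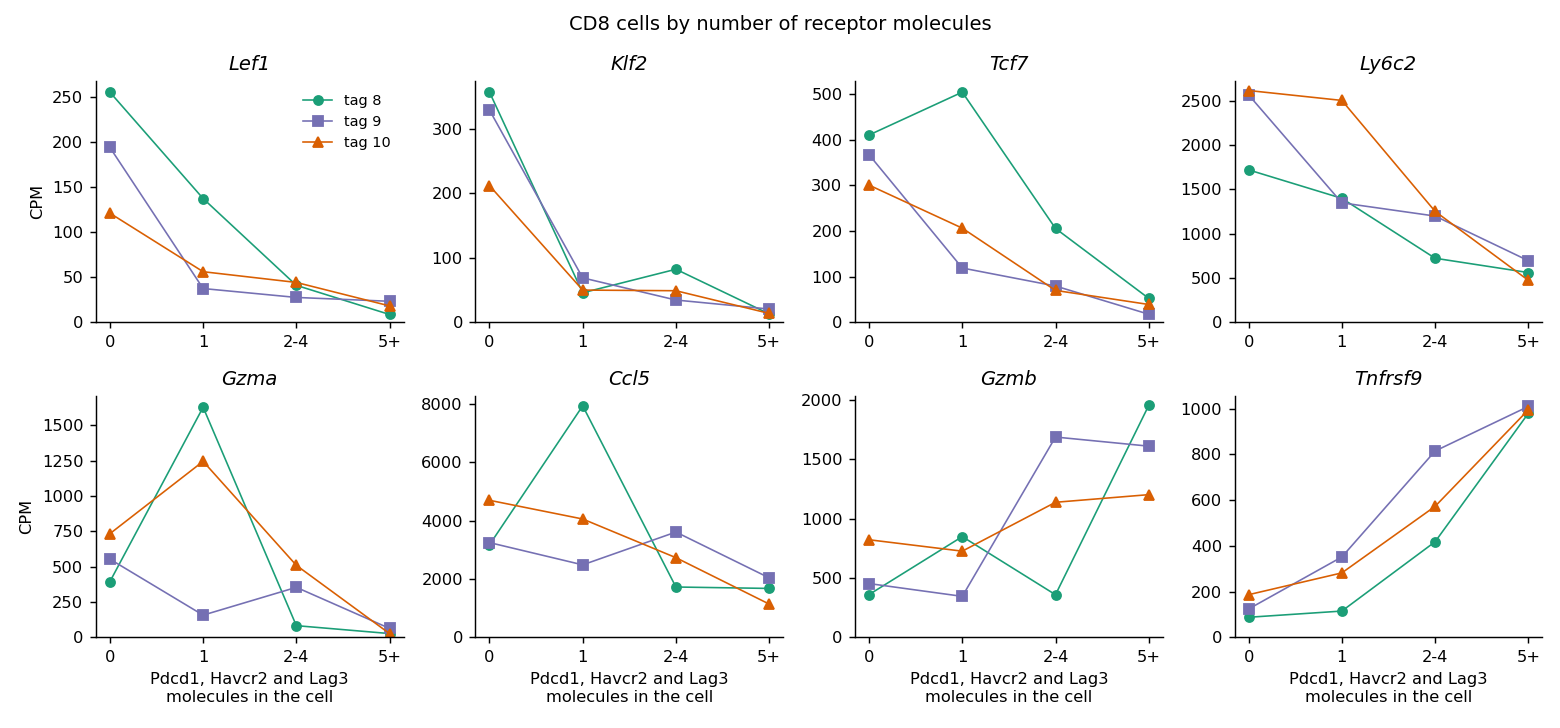
Summed levels (CPM) of 8 genes in CD8 cells by the number of Pdcd1, Havcr2 and Lag3 molecules in the cell, by tag. Klf2 falls most between 0 and 1 molecule, Ly6c2 falls at each step in each tag, and Tnfrsf9 climbs at each step.

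Members differed among themselves in the balance of resting and effector genes. Lef1 was counted in 122 of 310 members (39.4%) and Ccl5 in 255 (82.3%, 77.5 to 86.3%). Ccl5 was counted in 69.7% of the 122 members with Lef1 and in 90.4% of the 188 members without it, although the cells with Lef1 were deeper, at a median of 4290.5 molecules against 3352.5. Over the 310 members, Spearman's rho between the shares of Lef1 and Ccl5 in a cell's molecules was -0.27, a description over cells of 1 capture. Ly6c2 was counted in 253 members (81.6%, 76.8 to 85.8%), and Ccl5 in 85.0% of those and in 70.2% of the 57 members without Ly6c2. Gzma or Gzmb was counted in 150 members (48.4%), and Gzmb in 63.4% of the 71 members with Gzma, against 33.1% of the 239 without.

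Clustering of the 310 members on variable genes, without the genes of the rule, gave 4 clusters, which are described by their leading genes and were selected on those genes. The first, of 95 cells, had Igfbp4 and Klf2 among its leading genes and held 36, 43 and 16 cells of tags 8, 9 and 10. It had 588 CPM of Klf2, 418 of Ccr7 and 1127 of Ccl5. The second, of 101 cells, had 8048 CPM of Ccl5, 793 of Gzma and 131 of Klf2. Its leading genes were haemoglobin genes, which nearly all came from 1 cell described below, and then Ccl5, Adam19 and Nr4a2. Another, of 60 cells, was led by Mgl2, H2-Eb1, Il1b and H2-Aa, genes of macrophages and dendritic cells, and it stays unnamed. Of its cells, 9, 10 and 41 came from tags 8, 9 and 10, which held 78, 96 and 136 of the members. Cluster sizes were not compared between tags, since leading genes such as Igfbp4 differed between them. The cluster led by Mgl2 also held the interferon genes Rsad2, Ifit1 at 409 CPM and Isg15 at 320.1 CPM. The last, of 54 cells, was led by the cell cycle genes Pclaf, Birc5 and Stmn1, with 605 CPM of Mki67 and 1387 of Gzma. Ly6c2 was abundant in all 4, at 2208, 2730.4, 3597 and 1471 CPM. A finer resolution gave 7 clusters and a coarser one 3.

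**Figure D5:**
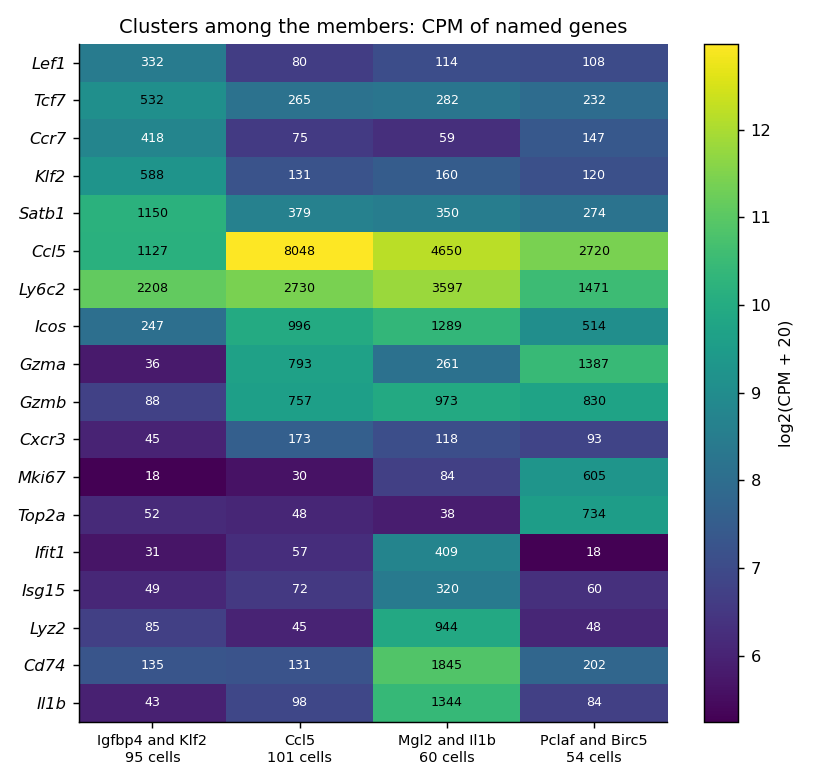
Summed levels (numbers, CPM; colour, log2 of CPM plus 20) of 18 genes in the 4 clusters of CD8 cells without receptor molecules, each named by some of its leading genes other than haemoglobin. Lef1, Ccr7 and Klf2 peak in 1 cluster, Ccl5 in another, Lyz2, Cd74 and Il1b in another and Mki67 and Top2a in the last.

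Transcripts of other lineages were also found in the members. At least 3 molecules of 7 macrophage and monocyte genes were counted in 86 members (27.7%) and in 191 receptor-bearing cells (44.7%). This limit was the same in both classes, whose median depths were 3685 and 7587 molecules. At least 1 such molecule was counted in 77.7% and 81.0% of their cells. The 7 genes summed to 569, 397 and 1135 CPM in receptor-free cells, against 707, 363 and 567 CPM in receptor-bearing cells. Without the cells of either class that had 3 or more molecules of the macrophage, B cell, neutrophil or melanoma lists, 214 receptor-free cells remained, and 92 genes were called higher and 162 lower. In that setting 75 of the 201 higher and 106 of the 263 lower genes were called again, with fewer genes compared (5984). The median depths were then 3473.5 molecules in receptor-free and 5598.5 in receptor-bearing cells. Klf2, Satb1, Klf3 and Sidt1 were called higher in each of the 21 alternatives run for this comparison. The 5 melanoma genes summed to 74.0, 29.9 and 34.2 CPM in receptor-free cells, against 41.8, 824 and 31.7 CPM in receptor-bearing cells. In tag 9, 2 receptor-bearing cells had 3 or more such molecules, and the tags did not share a direction. The 5 B cell genes summed to 67.3 to 80.3 CPM in receptor-free cells, against 15.8 to 42.7 CPM. The 5 genes of the CD4 and regulatory T cell list summed to 87.5 to 173 CPM, against 393 to 531 CPM, but Ikzf2, Il2ra and Tnfrsf4 of that list are also in the lists above.

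Receptor-free CD8 cells were also set against 253 CD4 T cells under the same cell filters, likewise without Foxp3, Pdcd1, Havcr2 and Lag3 molecules. Their lineage rule asked for any Cd4 molecule and no CD8 molecule, where CD8 cells needed at least 2 CD8 molecules. The median depth of the CD4 cells was 2903. Of 5605 genes, 35 were called higher (0.624%) and 53 lower (0.946%). With TMM scaling the split was 47 higher and 42 lower, and the median of all genes shifted by 0.13 on the log2 scale. Leaving out tag 8 gave 58 genes higher, and leaving out tag 10 gave 66 higher and 107 lower, since fewer tags had to concur. Of 197 list genes, 16 were higher and 4 lower. Of 13 cytotoxic genes, Gzma, Gzmb, Gzmk, Nkg7 and Cst7 were higher and none lower. The calls of Gzma and Nkg7 held in all 20 alternatives, while those of Gzmb and Gzmk were lost at 2000 to 8000 molecules and without cycling cells, and that of Cst7 in thinned cells. Gzma had 394, 553 and 733 CPM in receptor-free cells, against 6.55, 65.0 and 52.9 CPM in CD4 cells. Ccl5 had 3170.1, 3246 and 4696 CPM in receptor-free cells, against 439, 791 and 420.2 CPM in CD4 cells, with a ratio of 2.85 (2.04 to 3.48). Ly6c2 had 1719.7, 2565 and 2615 CPM in receptor-free cells, against 226, 589 and 459.9 CPM in CD4 cells. The classes did not overlap for these 3 genes.

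Eomes had 148, 145 and 162 CPM in receptor-free cells, against 9.82, 42.0 and 6.62 CPM in CD4 cells. Klrc1, an NK-type receptor gene found on CD8 cells, had 212, 160.2 and 284 CPM in receptor-free cells, against 19.6, 26.8 and 19.9 CPM in CD4 cells, and Klrd1 and Klrc2 were also higher. Cd27, a costimulator of memory cells, had 128, 132 and 171 CPM in receptor-free cells, against 16.4, 38.2 and 43.0 CPM in CD4 cells. Xcl1 was higher, at 1.44. The calls of Xcl1, Klrc2 and Klrd1 held in 12, 9 and 16 of 20 alternatives. Lower in the CD8 cells were Maf, a transcription factor of helper T cells, with 53.8, 27.8 and 71.8 CPM in receptor-free cells, against 458, 692 and 506 CPM in CD4 cells, Tnfrsf4 at -3.48, and Icos, with 384, 499.8 and 979 CPM in receptor-free cells, against 1312, 2381 and 2025 CPM in CD4 cells. Ctla4 was lower, with a ratio of -1.37 (-1.79 to -1.16). The call of Icos was lost with TMM scaling and that of Ctla4 in thinned cells. In the same receptor list Cd160 was called higher, a call that held in 7 of 20 alternatives. Of 14 proliferation genes Ccnb2 was called higher and none lower, with a list median of 1.09. The Ccnb2 call held in 8 of 18 alternatives. In the resting list, Dapl1 alone of 18 genes was called, higher, a call that held in 12 of 20 alternatives, and the list median was 0.13. Tcf7 and S1pr1 had 411, 367 and 301 CPM and 209, 229 and 186 CPM in receptor-free CD8 cells, against 514, 474 and 357 CPM and 331, 352 and 361 CPM in the CD4 cells. Neither was called. No gene was called among 8 GIMAP genes, 12 cytokine receptor genes, 13 type I interferon genes and 14 interferon gamma genes. In tag 8 the receptor-free CD8 cells held 74.0 CPM of the 5 melanoma genes and the CD4 cells 3993 CPM, in a class where 2 CD4 cells had 3 or more such molecules. The part of these transcripts in the ratios was not tested.

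Between the tags, receptor-free cells were compared at 4160 genes with enough molecules. The highest and lowest tag differed at least 2-fold, with intervals that did not overlap, for 264 genes (6.35%), of which 144 were highest in tag 10. Among 178 list genes 34 were spread in this way. Of the 17 resting genes compared, 6 were spread. Igfbp4, a gene of naive CD8 cells, had 229, 137 and 11.96 CPM, and its molecules lay in 13, 15 and 3 cells. Lef1 had 256, 194 and 121 CPM, and Bcl2, a survival factor, had 175, 128 and 64.9 CPM. Tag 10 was lowest for these 3 genes. Satb1 had 612, 839 and 407 CPM. Tcf7 and S1pr1 were not among the spread genes, at 411, 367 and 301 CPM and 209, 229 and 186 CPM.

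Tag 10 was highest for several effector and activation genes. Gzmb had 360.1, 453 and 822 CPM, Icos 384, 499.8 and 979 CPM, Tnfrsf9 87.5, 124 and 186 CPM and Cxcr6 53.8, 72.6 and 128 CPM. Irf4, a transcription factor induced by receptor signalling, had 6.73, 17.1 and 70.1 CPM, in 2, 8 and 26 cells. Nr4a1, another gene of recent receptor signalling, had 404, 325 and 706 CPM. Ccl5 was counted in 73.1%, 78.1% and 90.4% of members, and the interval of tag 10 (84.2 to 94.8%) lay above that of tag 8 (61.8 to 82.5%). The summed lists of 2 myeloid cell types were also highest in tag 10. The macrophage list summed to 569, 397 and 1135 CPM and the dendritic cell list to 586, 525 and 1871 CPM, and Cxcl10, Spp1, Tyrobp and Fcer1g were highest there. Of the Lyz2 molecules of tag 10, 131 of 211 lay in 1 cell, as did 44 of the 60 Spp1 molecules. The part of these transcripts in the spread was not tested. The spread rests on 1 tag for each unnamed tumour genotype, so tag, mice and genotype cannot be told apart.

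The 5 genes with the largest ratio between tags were Hba-a1, Hbb-bt, Hbb-bs, Hba-a2 and Igfbp4. The 4 haemoglobin genes together had 50.5, 96.1 and 1796.0 CPM. In tag 10, 1014 of their 1051 molecules lay in 1 cell, and 10, 19 and 19 members had any. A haemoglobin molecule was counted in 12.8%, 19.8% and 14.0% of members and in 17.4%, 17.4% and 16.8% of all kept cells.

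Beta chain variable segments (Trbv) were counted in 119 receptor-free cells (38.4%) and 248 receptor-bearing cells (58.1%), of 22 segments in the table. Both shares were read at the cells' own depth, with medians of 3685 and 7587 molecules, and were not matched for it. In receptor-free cells 19 segments were seen and the most frequent, Trbv12-2, was in 20 cells (16.8% of those with a segment). In receptor-bearing cells the most frequent was Trbv16, in 62 cells (25% of those with a segment). Segment reads do not give clones, and segments that resemble each other may share reads.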

How the data were processed

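Cells were captured once on the BD Rhapsody platform, which barcodes single cells and tags unique mRNA molecules. The authors deposited a count of unique molecules for each gene in each cell, error-corrected by version 1.9.1 of the BD Rhapsody WTA pipeline on GRCm38 with annotation vM19, per the file headers. The submitters' processing notes name another mouse build. Whether counting used strand is not given in the sources used here. The deposited table held 14899 cells with no cell index repeated, and 13090 had tag 8, 9 or 10. Cells called multiplet or undetermined were left out, and no further doublet caller was run. Gene coordinates are from an annotation of GRCm38.

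Molecules were summed per class and tag and divided by their total. Genes with 50 or more molecules in the 2 classes together were compared, with 0 replaced by 3 molecules for the ratio. Rule genes and mitochondrial genes were left out. Thinning was computed per cell without replacement. Clusters came from scanpy 1.11.5 with leidenalg 0.10.2, on 1000 variable genes and 15 components at resolution 0.5. TMM scaling used edgeR 4.0.16, and the ratio code was tested on simulated data. The members and gene lists were chosen with earlier results of these data known. Named genes were list members, the 10 firmest calls per direction and the 5 widest spreads between tags. A list gene that stays in all counts and list medians is not reported here by itself.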

Additional observations from a re-analysis of the deposited data

Results flagged for a closer look

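Among cells that the pipeline called multiplets, which entered no comparison, 44 passed the same rule, of 97 multiplet cells that passed as CD8 cells and 1271 multiplets within the gene and mitochondrial limits. Of 175 cells with an undetermined tag, none passed. The 44 cells carry more than 1 tag by the pipeline's call and were left out for that reason. They are listed because they passed the rule in data outside the comparisons. Among kept cells, 310 of 737 CD8 cells (42.1%) and 310 of 10491 cells (2.95%) passed. A difference from these shares was not tested, and the 44 cells are not read as a signal.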

How the results depend on the processing

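Against receptor-bearing cells, 201 genes were higher and 263 lower. These counts became 25 and 49 with cells thinned to 1000 molecules, 25 and 10 with the receptor rule itself read at 1000 molecules, 37 and 75 at 2000 to 8000 molecules, 108 and 142 with a minimum of 200 molecules, 92 and 162 without cells carrying other lineages, and 46 and 120 without cycling cells. Mean CPM over cells gave 82 higher. At 3000 to 5000 molecules, a range chosen after seeing the data, they were 25 and 27. Leaving out 1 tag gave 246 to 287 higher and 404 to 456 lower. Against CD4 cells, where 35 were higher and 53 lower, thinning gave 11 and 21, a minimum of 200 molecules 13 and 19, and the 3000 to 5000 range 20 and 32. The rule read at 1000 molecules gave 29 lower, no minimum 58 higher, and leaving out members with 5 further receptors 21 higher. Leaving out 1 tag gave 40 to 66 higher and 52 to 107 lower. Without the replicate block, with tags summed before the ratio, 538 and 863 genes passed against receptor-bearing cells and 138 and 203 against CD4 cells, since concurrence of tags was not asked for.

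With the rule read at 1000 molecules, log2 ratios turned to -0.78 (Id3), -0.97 (Gzmm), 1.08 (Prdm1), 0.26 (Cd200), -0.59 (Itgae), -0.004 (Il6ra), -0.008 (Il6st), -0.011 (Rtp4), 0.16 (Cdk1) and 0.42 (Asns). Gzma turned to -0.040 at 2000 to 8000 molecules, Tyms to 0.47 at 3000 to 5000, and Tpi1 to -1.23 against CD4 cells with tags summed. The cause was not tested. The share of CD8 cells without receptor molecules, 42.1%, was 72.7% with the rule read at 1000 molecules, 54.7% at 2000 to 8000 and 62.4% at 3000 to 5000 molecules, 48.2% without other lineages, 55.1% without cycling cells, 47.9% with 1 CD8 molecule or more and 32.6% with 4 or more, and 39.7% to 45.9% with 1 tag left out. A resolution of 1.0 gave 7 clusters. Depth limits every absence here, and fewer genes and cells were compared in the narrower settings.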
